A study of Mus musculus with 6 samples.

Results

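Splicing factor genes were taken as the rows of the deposited gene table whose symbol begins with Srsf and a digit, Hnrnp, Snrp, Sf3a or Sf3b and a digit, or U2af1 or U2af2. The rule found 55 of 23307 genes. They are 11 SR protein genes, 20 hnRNP genes, 12 genes of snRNP proteins, 9 genes of splicing factor SF3 and 3 genes of the U2AF type. RNA had been sequenced from cell suspensions of the inguinal lymph nodes of SJL mice, on day 3 after induction of EAE. EAE, experimental autoimmune encephalomyelitis, models multiple sclerosis. Perampanel, which blocks AMPA receptors and is prescribed against seizures, had been given therapeutically to 3 of the mice, and 3 EAE mice served as controls. All 6 mice had thus been induced for EAE, and no group without induction was analysed here. Dose, vehicle, age and sex are not stated in the labels. The labels number 3 samples per group, each taken here as a separate mouse, so p-values measure the spread between these samples.

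Splicing removes introns from a pre-mRNA in the spliceosome, which is built on each intron from small nuclear ribonucleoprotein particles (snRNPs). A ring of Sm proteins forms the core of most of these particles, U2AF reads the 3' end of the intron, and SF3 within the U2 particle holds the branch site. SR proteins bind exons and mostly favour the use of nearby splice sites, whereas many hnRNPs oppose it. In T cells hnRNP LL is known to make activated cells skip exons of Ptprc, which encodes the surface phosphatase CD45. A count per gene does not show which exons were joined, so the values concern the amount of these mRNAs and not splicing itself.

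The libraries held 1779724 to 2003726 reads under perampanel and 2036072 to 2208589 in controls, so every perampanel library was shallower than every control library. Values are read counts divided by the authors' size factor of each library, called normalized read counts. The labels give lymphocytes as the cell type, and T cell transcripts were abundant. The 14 T cell markers summed to 24172 to 24971 normalized read counts under perampanel and 22314 to 23641 in controls, and the 10 B cell markers to 82.4 to 106 under perampanel and 94.6 to 155 in controls. The 9 stromal markers summed to 4.03 to 8.01 under perampanel and 0.913 to 8.86 in controls, with the lymph node chemokine genes Ccl19 and Ccl21a at 0 reads. In such bulk samples fewer cells of a type and less RNA per cell cannot be told apart.

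Splicing factor mRNAs took up 1.38%, 1.41% and 1.44% of all reads in perampanel mice 1 to 3, against 1.499%, 1.42% and 1.47% in controls 1 to 3. The perampanel 3 value lay above that of control 2, so the groups overlapped. Per kilobase of the longest annotated transcript, the 52 genes that averaged 10 or more normalized read counts spanned from 14.6 to 871 normalized reads per kb. The highest was Snrpe, which encodes the Sm ring protein E, at 762.8 to 835 per kb under perampanel and 901 to 983 in controls. Next came Hnrnpa2b1, a regulator of exon choice and RNA transport, at 671 to 721 per kb under perampanel and 709 to 748 in controls. Snrpg, the Sm ring protein G, was at 677 to 741 per kb under perampanel and 706 to 712 in controls. Hnrnpf, which binds runs of G, followed at 675 to 710.4 per kb under perampanel and 682 to 714 in controls. The ranges of Hnrnpa2b1, Snrpg and Hnrnpf overlapped, whereas Snrpe stood above all of them in every library. The fifth was Srsf5, the highest of the SR proteins, at 434 to 477 per kb under perampanel and 388 to 421 in controls.

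**Figure D1:**
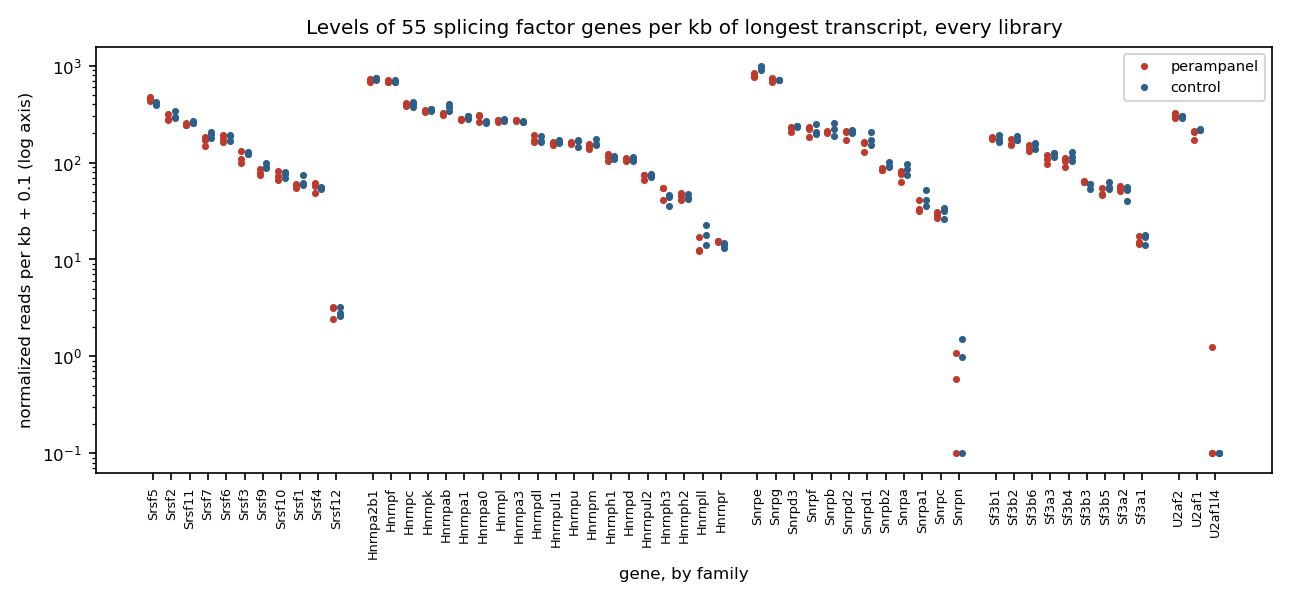
Normalized reads per kb of the longest transcript plus 0.1, so that zeros show on the log axis, for all 55 genes, in each of 3 perampanel (red) and 3 control (blue) libraries. Snrpe, Hnrnpa2b1, Snrpg and Hnrnpf stand highest and Srsf12, Snrpn and U2af1l4 lowest, and for most genes the 6 points lie close together.

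At the other end stood 3 genes too low to test. Srsf12, an SR protein gene, had 9.18, 9.08 and 6.87 normalized read counts under perampanel and 7.87, 9.13 and 7.35 in controls. Snrpn, the imprinted Sm protein gene known from the brain, had 2, 1 and 0 reads under perampanel and 3, 2 and 0 in controls. A single read of U2af1l4, a relative of the small U2AF subunit, was found in the 6 libraries, in perampanel 2, and a difference in it or in Snrpn was not detectable at this depth. Among the tested genes the lowest level per kb was that of Hnrnpr, whose longest annotated transcript has 21452 bases, while its mean was 313 normalized read counts.

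No splicing factor gene passed the test between perampanel and control. Of the 52 tested, 0 were called higher (0.419% of all genes tested were) and 0 lower (0.683%), with limma and a Benjamini-Hochberg adjustment over all 9076 tested genes to under 0.05, of which 1.1% were called in either direction. At an unadjusted p under 0.05, 6 of the 52 (11.5%) stood out, against 9.33% of all tested genes, a share near the background. Srsf5 and Hnrnpa0 were the 2 higher ones (background 4.36%), and Snrpe, Hnrnpab, Srsf7 and Hnrnpll the 4 lower ones (background 4.97%). The edgeR test on recovered reads also called 0, with 6 at an unadjusted p under 0.05, and DESeq2 called 0, with 4. In the authors' deposited table an adjusted p is given for 48 members, and the smallest is 0.0899.

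The intervals show what size of difference remains possible. For 31 of the 52 genes the whole 95% interval of the log2 fold change lay between -0.3 and 0.3, and for 48 between -0.5 and 0.5. The members had a median of 455 normalized read counts against 67.1 for all tested genes, and their median absolute log2 fold change was 0.09 against 0.13. A negative fold change was found for 38 of 52 members (73.1%), against 49.7% of all tested genes, and their median was -0.06 against 0.00. Perampanel and control values did not overlap for 9 of 52 members (17.3%), against 14.1% of all tested genes. Of these, 6 lay lower in all 3 perampanel mice (11.5% of members, background 6.9%) and 3 higher (5.77%, background 7.18%).

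**Figure D2:**
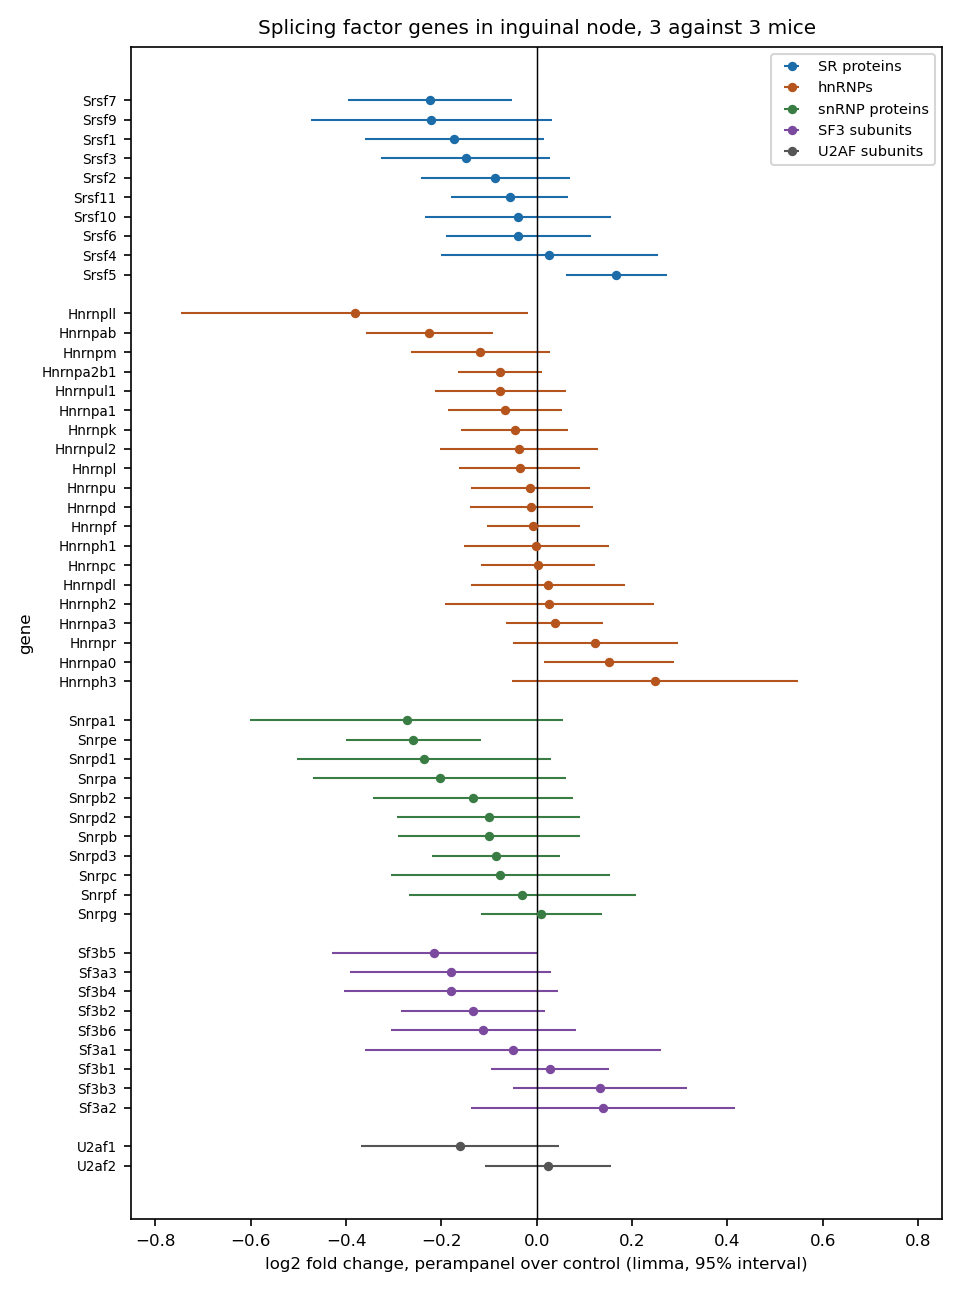
Log2 fold change of perampanel over control for the 52 tested genes, by family and in order of size, with limma's 95% interval (3 mice per group). Most intervals span 0, those of Srsf5 and Hnrnpa0 lie above it, and those of Srsf7, Hnrnpll, Hnrnpab and Snrpe below it, none with an adjusted p under 0.05.

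The promoters of the 3 members with the smallest p are shown because their mRNAs are the ones nearest to a call. Each runs from 250 bases before to 30 bases after the gene start of RefSeq (GRCm38.p6), 5' to 3' on the gene's strand. Capitals mark the motifs searched on both strands: CCGGAAG, bound by ETS factors, CACGTG, the E-box bound by MYC and MAX, CCAAT and TATAAA.
Snrpe (chr1:133610251-133610530, minus strand): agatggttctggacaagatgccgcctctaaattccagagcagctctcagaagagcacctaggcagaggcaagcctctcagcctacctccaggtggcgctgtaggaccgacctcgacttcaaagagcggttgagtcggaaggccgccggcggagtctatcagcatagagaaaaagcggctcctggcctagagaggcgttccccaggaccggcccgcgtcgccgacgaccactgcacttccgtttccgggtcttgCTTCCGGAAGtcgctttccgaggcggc
Hnrnpab (chr11:51606852-51607131, minus strand): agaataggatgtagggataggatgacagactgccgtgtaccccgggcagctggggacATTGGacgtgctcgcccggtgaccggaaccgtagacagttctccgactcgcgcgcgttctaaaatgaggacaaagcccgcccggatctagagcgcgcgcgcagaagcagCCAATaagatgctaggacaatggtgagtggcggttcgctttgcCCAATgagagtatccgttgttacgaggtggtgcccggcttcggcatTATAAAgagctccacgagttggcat
Srsf5 (chr12:80945249-80945528, plus strand): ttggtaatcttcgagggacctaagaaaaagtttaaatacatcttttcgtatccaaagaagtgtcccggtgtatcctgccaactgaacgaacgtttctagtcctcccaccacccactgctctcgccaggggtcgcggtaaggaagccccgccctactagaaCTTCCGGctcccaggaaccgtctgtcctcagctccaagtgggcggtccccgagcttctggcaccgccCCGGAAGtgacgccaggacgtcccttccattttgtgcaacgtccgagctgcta
Snrpe holds the ETS motif once on each strand, overlapping, just after its start, and Srsf5 holds it at 2 places before its start. Hnrnpab has 3 CCAAT matches before its RefSeq start and a TATAAA match after that start. In GENCODE M21 the start of Hnrnpab is 51606847, downstream of the printed window, so the TATAAA match lies before the GENCODE start. None of the 3 holds CACGTG in this window.

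Promoters of 48 of the 55 members were matched by symbol, 66 in all since some genes have several. The ETS motif was in 21 of these 66 (31.8%), against 8.45% of 32851 mouse promoters of the same length. For CACGTG the shares were 10.6% of member promoters and 6.79% of all, for CCAAT 45.5% and 36.1%, and for TATAAA 10.6% and 13.1%. The 32851 promoters were not matched to the members in expression or GC content. A match describes letters only, and the motifs were chosen with results known.

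Among the SR proteins, which carry a domain rich in arginine and serine, 8 of 10 tested genes had a negative fold change and the median was -0.07. Srsf5 (chromosome 12, 80945504 to 80950507, GRCm38, protein-coding) had 1511, 1660.0 and 1563 normalized read counts in perampanel mice 1 to 3, against 1351, 1398 and 1465 in controls 1 to 3. All 3 perampanel values lay above all 3 control values. The log2 fold change was 0.17 ± 0.05 (SE, 95% interval 0.06 to 0.27), with a limma adjusted p of 0.143.

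Srsf7 (chromosome 17, 80200080 to 80207307), an SR protein with a zinc knuckle, had 355, 406 and 443 normalized read counts under perampanel, against 493, 435 and 475 in controls. Perampanel 3 lay above control 2. Its log2 fold change was -0.22 (95% interval -0.40 to -0.05, limma adjusted p = 0.306). Srsf9, an SR protein with a short tail of this domain, had 103, 109 and 119 normalized read counts under perampanel, all below the 126, 138 and 122 of controls (log2 -0.22, 95% interval -0.47 to 0.03).

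The other SR genes had overlapping groups or smaller fold changes. Srsf1, the founding member of the family, had 303, 293 and 321 normalized read counts under perampanel and 398, 311 and 329.7 in controls (log2 -0.17), where control 1 stood apart. Srsf3, the smallest SR protein, had 392, 530.5 and 435 under perampanel and 491, 512 and 489.6 in controls (log2 -0.15), with perampanel 2 the highest of the 6. Srsf2 had 532, 521 and 596 under perampanel and 647, 551 and 557 in controls (log2 -0.09). Srsf11 and Srsf4 showed small fold changes. Srsf11 had 766, 795 and 762 under perampanel and 829.7, 795 and 792 in controls (log2 -0.06). Srsf4 had 192, 150.3 and 176 under perampanel and 169, 164 and 173 in controls (log2 0.03). Srsf6 and Srsf10 had log2 fold changes of -0.04 and -0.04.

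The hnRNP genes had a median log2 fold change of -0.01, and 14 of 20 (70%) had an absolute value under 0.1. The share was 26 of all 52 members (50%), hnRNP genes included, and 40.4% of all tested genes. The hnRNP genes also had more normalized read counts (median 731, against 455 for all members) and a smaller median SE (0.066 against 0.082). The most abundant of them, Hnrnpa2b1 (chromosome 6, 51460932 to 51469894), had 2445, 2529 and 2628 normalized read counts under perampanel, against 2725, 2583 and 2715 in controls (log2 -0.08, 95% interval -0.17 to 0.01). Hnrnpf (chromosome 6, 117900324 to 117925622) had 1644, 1621 and 1706 under perampanel, against 1642, 1637 and 1715 in controls (log2 -0.01, 95% interval -0.10 to 0.09). Hnrnpc (chromosome 14, 52073377 to 52104028), which binds tracts of U, had 1097, 1141 and 1182 under perampanel, against 1212, 1055 and 1153 in controls (log2 0.00, 95% interval -0.12 to 0.12). The groups overlapped in all 3 genes.

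Hnrnpab (chromosome 11, 51600100 to 51606847), an RNA-binding protein of the A/B type, had 743, 728 and 777 normalized read counts under perampanel, against 945, 804 and 886 in controls, and the groups did not overlap. The log2 fold change was -0.23 ± 0.06 (SE, 95% interval -0.36 to -0.09, limma adjusted p = 0.0973). Exons of Phykpl, on the opposite strand, cover 29.1% of its exon bases, and the library kit does not mark strand. Phykpl averaged 40.8 normalized read counts.

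Hnrnpll (chromosome 17, 80029487 to 80062334), the regulator of Ptprc exons named above, had the fewest normalized read counts of the tested members and the largest standard error. It had 57.1, 79.7 and 56.1 under perampanel, against 105, 64.8 and 83.6 in controls, so perampanel 2 lay above control 2. The log2 fold change was -0.38 with a 95% interval of -0.75 to -0.02 (limma adjusted p = 0.500). It was -0.54 without perampanel 2 and -0.21 without control 1.

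On the higher side, Hnrnpa0 (chromosome 13, 58125879 to 58128556), known to bind AU-rich mRNAs of cytokines, had 827, 706 and 802 normalized read counts under perampanel, against 718, 699 and 682 in controls. Of the perampanel mice, perampanel 2 lay within the control range (log2 0.15, 95% interval 0.01 to 0.29, limma adjusted p = 0.458). Hnrnph3 (chromosome 10, 63014664 to 63024217), a relative of the G-run binders, had 119, 121 and 90.4 under perampanel, against 77.8, 96.8 and 103 in controls (log2 0.25, 95% interval -0.05 to 0.55). Exons of Rufy2 on the opposite strand overlap 3.65% of its exon bases, and Rufy2 averaged 117 normalized read counts. Hnrnpr was at 323, 328 and 327 under perampanel, all above the 279, 319 and 302 of controls (log2 0.12).

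**Figure D3:**
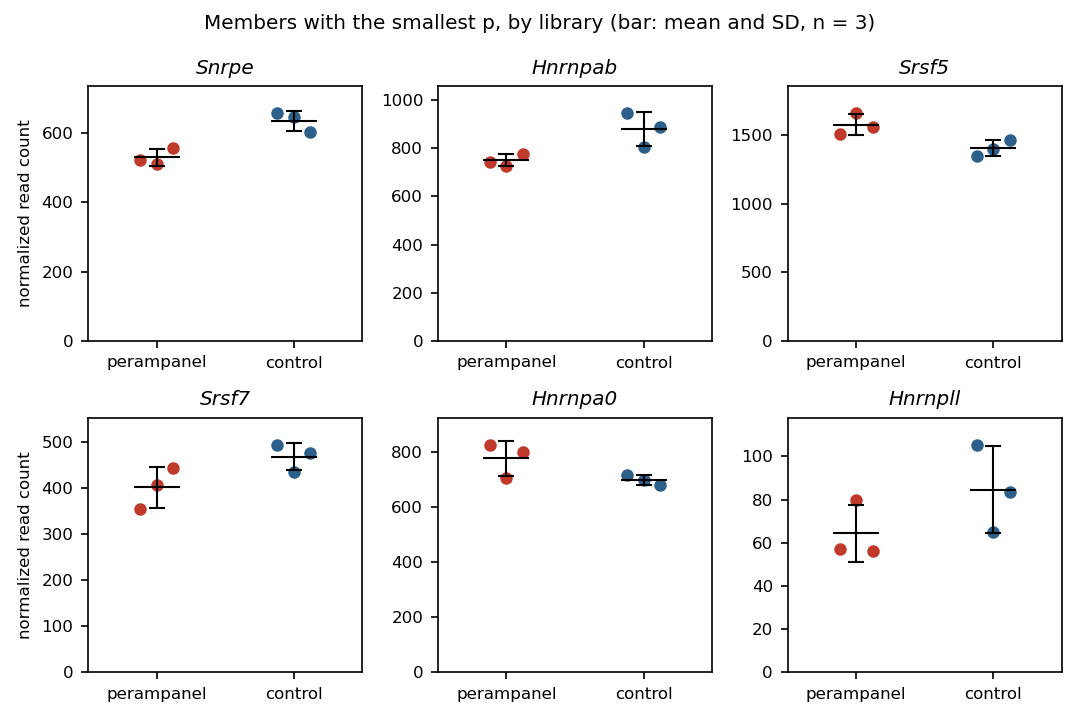
Normalized read counts of the 6 members with the smallest p in each library, with perampanel (red) left of control (blue), and the mean and SD of 3 mice as bars. The groups do not overlap for Snrpe, Hnrnpab and Srsf5, and overlap for Srsf7, Hnrnpa0 and Hnrnpll.

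Of the snRNP protein genes, 10 of 11 tested had a negative fold change, with a median of -0.10. Snrpe (chromosome 1, 133603871 to 133610291), whose promoter is printed above, had 523, 510.3 and 559 normalized read counts under perampanel, against 657, 646 and 603 in controls. The perampanel values all lay below the control values. The log2 fold change was -0.26 ± 0.07 (SE, 95% interval -0.40 to -0.12), and at a limma adjusted p of 0.0643 it was the member nearest to the threshold.

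Other tested genes of the Sm ring had smaller absolute log2 fold changes than Snrpe, though Snrpd1 at -0.24 came close to it. Snrpg (chromosome 6, 86371304 to 86379328) had 769, 714 and 782 normalized read counts under perampanel, against 745, 752 and 751 in controls (log2 0.01, 95% interval -0.12 to 0.14). Snrpf had 201, 156 and 192 under perampanel, against 213, 179.9 and 168 in controls (log2 -0.03). Its exon bases are overlapped over 65.9% by Ccdc38 on the opposite strand, which averaged 3.82 normalized read counts. Snrpd3 had 698, 621 and 702 under perampanel, all below the 715, 705 and 720.1 of controls (log2 -0.08, 95% interval -0.22 to 0.05). Snrpd1, Snrpd2 and Snrpb, the remaining ring genes tested, had log2 fold changes of -0.24, -0.10 and -0.10. On leaving out 1 library Snrpd1 ran from -0.34 to -0.12, Snrpd2 from -0.15 to -0.0020 and Snrpb from -0.22 to 0.01. The difference between Snrpe and the other ring genes was not tested.

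Proteins specific to the U1 and U2 particles had a negative fold change in 4 of 4 genes, with a median of -0.17. Snrpa1 (chromosome 7, 66059003 to 66074587), which encodes the U2 protein A', had 64.2, 67.6 and 82.4 normalized read counts under perampanel, against 105, 83.1 and 72.6 in controls. Perampanel 3 lay above control 3, and the interval of the log2 fold change of -0.27 ran from -0.60 to 0.06. Snrpb2, the U2 protein B'', had 173, 183 and 173 under perampanel, all below the 185, 189 and 207 of controls (log2 -0.13). The U1 protein genes Snrpa and Snrpc had log2 fold changes of -0.20 and -0.08, with overlap. On leaving out 1 library Snrpa ran from -0.30 to -0.09 and Snrpc from -0.18 to -0.0032, with perampanel 2 and control 1 the libraries whose omission gave the values nearest to 0.

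SF3 genes, which encode the complex at the branch site, had a median of -0.11, with 6 of 9 negative. Sf3b1 (chromosome 1, 54985169 to 55027481), the largest subunit, had 1102, 1082 and 1149 normalized read counts under perampanel, against 1073, 1192 and 1011 in controls (log2 0.03, 95% interval -0.09 to 0.15). Sf3b5 (chromosome 10, 13005343 to 13009183), a small subunit, had 209, 183 and 176 under perampanel, against 243, 215 and 202 in controls (log2 -0.22, limma adjusted p = 0.537). Sf3b3 had 289.6, 287 and 283 under perampanel, all above the 272, 241 and 273 of controls (log2 0.13). Sf3a2 had a log2 fold change of 0.14 and Sf3a3 of -0.18. Sf3b2 and Sf3b6, the highest per kb after Sf3b1, were at -0.13 and -0.11.

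Of the U2AF subunits, U2af1 (chromosome 17, 31647081 to 31658892), which reads the AG at the end of the intron, had 217, 219 and 179 normalized read counts under perampanel, all below the 230.3, 226 and 229 of controls (log2 -0.16, 95% interval -0.37 to 0.05). U2af2 (chromosome 7, 5062143 to 5079938), which binds the pyrimidine tract, had 720.0, 699 and 788 under perampanel, against 736, 701 and 731 in controls (log2 0.02, 95% interval -0.11 to 0.16). Neither passed the test.

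Per library, the mean log2 deviation of each family from its mean over the 6 libraries shows which mice set these medians. For the snRNP genes it was -0.03, -0.18 and 0.01 in perampanel mice 1 to 3 and 0.19, 0.01 and 0.00 in controls 1 to 3. Perampanel 2 was thus low and control 1 high, with the other 4 mice between. For the SR genes it was -0.11, -0.04 and 0.03 under perampanel and 0.07, 0.01 and 0.04 in controls, and the groups overlapped. Summed over the family, snRNP mRNAs came to 3451 ± 201 normalized read counts under perampanel and 3727 ± 168 in controls (SD, n = 3 each), a difference of -7.4%. The sums differed by -1.54% for SR genes and by -2.02% for hnRNP genes.

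**Figure D4:**
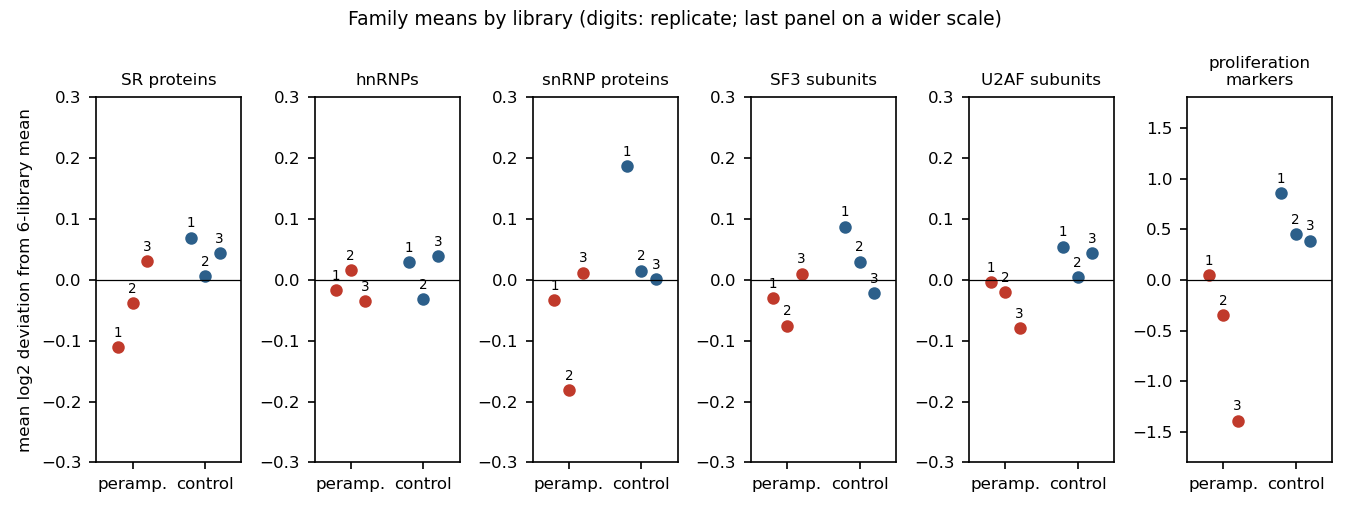
Mean log2 deviation of the tested genes of each family from their 6-library mean, for perampanel (red, left) and control (blue, right) mice 1 to 3, with proliferation markers in the last panel on a wider scale. The families stay within 0.19 of 0 and overlap except for the U2AF pair, whereas proliferation markers run from -1.39 to 0.86 without overlap.

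Proliferation markers moved with the groups. Of 20 such genes 9 fell by limma and 0 rose, and their mean deviation was 0.05, -0.35 and -1.39 in perampanel mice 1 to 3 and 0.86, 0.45 and 0.39 in controls. Control 1 was highest in these and in the SR, snRNP, SF3 and U2AF genes, but not in the hnRNP genes. Perampanel 3, the lowest in proliferation markers, was the highest perampanel library in snRNP, SR and SF3 genes and the lowest of all 6 libraries in hnRNP and U2AF genes. The part of proliferation in the splicing factor values was not tested. Of the 14 T cell markers 2 rose by limma, Trac by 0.16 and Tcf7 by 0.18 on the log2 scale, 0 fell, and 5 had a negative fold change. Cd8a, a subunit of the CD8 co-receptor, had 138, 150.3 and 142 normalized read counts under perampanel, all below the 192, 172 and 187 of controls (log2 -0.36, 95% interval -0.58 to -0.13, limma adjusted p = 0.130), and Cd8b1 was at -0.14. Of 9 tested handling response genes 2 fell, Hspa8 by 0.20 and Hsp90aa1 by 0.42 on the log2 scale.

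Of 159 further genes listed for the splicing pathway, 148 were tested. Of these 1 was called higher and 0 lower, against 0.419% and 0.683% of all tested genes, so the count is near the background, and their median was -0.01. The called gene was Cirbp, a cold-inducible RNA-binding protein, with 189.7, 186 and 188 normalized read counts under perampanel, against 131, 149.8 and 120.3 in controls. It rose by 0.49 (log2, SE 0.11, limma adjusted p = 0.0216). The call was lost with DESeq2, with quantile normalization and on leaving out any 1 library other than control 2, with log2 fold changes of 0.42 to 0.50 and adjusted p of 0.0522 to 0.123.

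The other genes gave values only. The 40 tested splicing regulators, Cirbp among them, had a median log2 fold change of -0.01. Among 8 tested kinases of SR proteins and related kinases the median was 0.12. Srpk1, which phosphorylates SR proteins, had 525, 561 and 536 normalized read counts under perampanel, all above the 446, 477 and 503 of controls (log2 0.19), and Dyrk1a was at 0.18. For 15 SR-related genes the median was 0.00, with Tra2a at -0.19 and Rnps1 at -0.15.

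Further snRNP proteins outside the Snrp symbols (32 tested) had a median of -0.06 and 23 negative fold changes, with Lsm7 of the U6 ring at -0.32 and Cd2bp2 of the U5 particle at 0.37. Genes that assemble snRNPs (11 tested) had a median of -0.09 and 9 negative fold changes, with Coil, which encodes coilin of Cajal bodies, at -0.45 (95% interval -0.97 to 0.06, mean 28.5 normalized read counts) and the Sm methyltransferase gene Prmt5 at -0.15. The 27 genes of the catalytic spliceosome had a median of -0.02, with the helicase genes Ddx41 and Dhx38 at -0.33 and -0.26. For the exon junction complex and nonsense-mediated decay (15 genes) the median was 0.07, with Magoh at -0.28 and the kinase gene Smg1 at 0.14. None of these genes other than Cirbp passed the test.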

How the data were processed

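Libraries were made with a poly(A) kit that does not mark strand, per the labels' protocols. The deposited table gives a signal per gene and sample, which is the read count over a size factor set by the authors. It also holds the authors' log2 fold changes, Wald score, p-values and adjusted p-values. The submitters' processing notes list DESeq2, DESeq and GRCm38; the aligner and counter were not stated there. All values were whole multiples of their column's smallest value (100% within 1e-06), which gave back reads. A floor of 3 reads is 1.36 to 1.69 CPM and covers counting error only. Within groups, chi-square over degrees of freedom between libraries was 1.56 to 1.80, so all 6 were counted as separate samples.

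The 9076 of 23307 genes averaging at least 10 were tested by limma-trend (limma 3.58.1 in R 4.3.3) after log2 transformation with a pseudocount of 1, with no covariate, and fold changes are on that scale. The procedure was tested on simulated data whose changes were larger than the fold change of any tested member, so smaller changes were not covered. Members, lists and rules were chosen with earlier results of these data known. The rule for named members takes, per family, the 3 highest per kb, the 2 with the most negative and the 2 with the most positive fold change, and from each further list the called genes and those of smallest p up to 2, of which 1 is not reported here. Srsf1, Srsf3, Srsf6, Srsf10, Srsf12, Hnrnpr, Snrpa, Snrpb, Snrpb2, Snrpc, Snrpd1, Snrpd2, Snrpn and Sf3a1 were named after their values were seen. Positions and lengths are from GENCODE M21 (GRCm38), which matched all 55 symbols. Exons of another gene overlap those of 24 members, and many have near-identical pseudogenes, so reads may be divided between copies. For instance, Plekhj1 on the opposite strand overlaps 16.1% of the exon bases of Sf3a2. Plekhj1 averaged 165 normalized read counts and Sf3a2 115. Mettl23 and Mfsd11, also opposite, overlap 15.6% and 9.74% of those of Srsf2. Gm12992, opposite to Srsf4 and of unknown level, overlaps 43.0% of its exon bases. Alternatives also used edgeR 4.0.16 and DESeq2 1.42.0.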

Additional observations from a re-analysis of the deposited data

How the results depend on the processing

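Under 17 alternatives 33 of the 52 tested splicing factor genes kept the sign of their fold change, and the 19 that did not had absolute log2 fold changes of at most 0.14. No member was called higher under any of them. The count called lower was 0 except for 2 with quantile normalization (Hnrnpab -0.25 and Snrpe -0.28), 1 with no filter on low values and 1 with libraries thinned to the shallowest, both times Snrpe. Thinned libraries were compared at equal totals, without the authors' size factors, so depth and scaling changed together. Over the alternatives the adjusted p of Snrpe ran from 0.0378 to 0.317, and that of Hnrnpab from 0.0453 to 0.542. Family medians moved by less than the larger of the perampanel and control SDs between libraries, but for SR, hnRNP and U2AF genes by more than the smaller SD. On leaving out 1 library they ran from -0.12 to -0.05 for SR, -0.03 to -0.01 for hnRNP, -0.15 to -0.08 for snRNP, -0.10 to -0.07 for SF3 and -0.08 to -0.05 for U2AF genes. Of 39 named members tested, 32 moved by over 1.5 times or turned sign on leaving out 1 library; Snrpe, Hnrnpab, Srsf5, Srsf9, Hnrnpa0, Hnrnpa2b1 and Sf3b2 did not. Over all genes 100 were called, 179 with no filter, 50 by DESeq2 and 44 to 113 on leaving out 1 library (44 without control 1 and 55 without control 2). With the replicate number as a block 103 genes and 0 members were called, and the members' median stayed at -0.06. Deviations of same-numbered mice correlated at 0.033, 0.033 and 0.016, each pair's best but under 0.1, so the numbers were not taken as pairs. Among named members the sign of the log2 fold change turned for Hnrnpf at 0.0012 with TMM scaling, Hnrnpc at -0.0161, Snrpg at -0.0260 and U2af2 at -0.0185 with quantile normalization and Hnrnpc at -0.0247, Snrpg at -0.00081 and Sf3a1 at 0.0015 in thinned libraries. On leaving out 1 library it also turned within ranges of -0.118 to 0.0292 for Srsf10, -0.0519 to 0.123 for Srsf4, -0.108 to 0.0276 for Srsf6, -0.0162 to 0.0492 for Snrpg, -0.0280 to 0.0146 for Hnrnpf, -0.102 to 0.0796 for Snrpf, -0.150 to 0.0217 for Sf3a1, -0.0524 to 0.0475 for Hnrnpc, -0.0269 to 0.0591 for U2af2, -0.216 to 0.0112 for Snrpb, -0.0035 to 0.233 for Sf3a2 and -0.0255 to 0.0929 for Sf3b1. The cause of these turns was not tested. Srsf12, Snrpn and U2af1l4 were too low to test at this depth.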

Other observations

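Ratios of members within a library do not depend on how libraries are scaled. They were chosen after the values were seen and carry no test. Reads of Srsf5 over those of Srsf7 were 4.26, 4.08 and 3.53 in perampanel mice 1 to 3, against 2.74, 3.22 and 3.09 in controls 1 to 3. Their means were 3.96 ± 0.382 under perampanel and 3.01 ± 0.246 in controls (SD, n = 3 each). The ratio of Snrpg to Snrpe, partners in the Sm ring, was 1.47, 1.40 and 1.40 under perampanel, against 1.13, 1.16 and 1.25 in controls. Hnrnpa0 over Hnrnpab was 1.11, 0.970 and 1.03 under perampanel, against 0.759, 0.869 and 0.770 in controls. Each of these ratios was higher in every perampanel mouse than in every control mouse, which follows in part from choosing members with fold changes of unlike sign.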
